A study of Rattus norvegicus with 24 samples.

Results

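The 10 genes Spink1l, Kcnma1, Lrtm2, Tox, Myo3a, Dmrta1, Pcdh7, Synj2, Zfp354a and Glt1d1 were followed in the livers of 24 adult female rats. They were chosen by their own-diet differences, a higher signal in females eating a high-fat diet (HFD) than in those on chow, and because they lie outside the known pathways of lipid metabolism. Each was represented by the only feature of the array that carries its name, 10 of 16856 named genes. All 10 passed the filter on dim features, which left 12745 named genes. Because the own-diet differences chose the genes, those differences are given as descriptions with standard errors and without p-values.

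The females were Sprague-Dawley rats of the F2 generation, and each gave 1 liver sample and 1 Affymetrix whole-transcript array. Lines are named after what the F0 grandfather had eaten, chow or an HFD. Each female then ate chow or an HFD (42/45% of energy from fat, as the labels write it) for 12 weeks as an adult. Group GpatCD-CD held 7 chow-line females on chow, GpatCD-HF held 6 chow-line females on the HFD, GpatHF-CD held 6 HFD-line females on chow, and GpatHF-HF held 5 HFD-line females on the HFD. No transgene or drug is named in the labels. No female is tied to a litter, parent or grandfather there, so the arrays were treated as independent, and p-values measure only the spread between these samples. In whole liver, fewer cells of a type and less RNA per cell cannot be told apart.

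The growth protocol speaks of adipose tissue, while titles, source and tissue label say liver. Hepatocyte markers were bright on every array, with a summed intensity of 70388 to 89792 over 11 markers. Array medians ranged from 97.9 to 128. Arrays 21 and 25 of GpatCD-CD, 22 of GpatCD-HF and 24 of GpatHF-HF stood apart in an earlier principal component view of these data, and values without them are given for the genes whose difference moved most and for calls that were lost.

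The genes belong to unrelated families. Spink1l encodes a Kazal-type inhibitor of serine proteases, close kin of the pancreatic secretory trypsin inhibitor Spink1, which blocks trypsin that becomes active too early. Kcnma1 encodes the pore of the BK channel, a potassium channel opened by calcium and by voltage, and Lrtm2 encodes a membrane protein with leucine-rich repeats. Tox, Dmrta1 and Zfp354a encode nuclear proteins that bind DNA: an HMG-box protein best known from T cells, a DM-domain factor and a KRAB zinc finger protein. Myo3a encodes an unconventional myosin with a kinase domain known from the hair cells of the inner ear, Pcdh7 a protocadherin of the cell surface, Synj2 a phosphatase of inositol lipids that acts in membrane traffic, and Glt1d1 a protein with a glycosyltransferase domain.

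Spink1l and Spink1 are consecutive protein-coding genes in the RefSeq order of rat assembly GRCr8, and their promoters are nearly the same sequence. The windows below run from 250 bases before to 50 bases after each gene's start, on the minus strand at chr18:36086647-36086946 for Spink1l and chr18:36133547-36133846 for Spink1. They are shown because the pair gave the closest co-variation of any gene and neighbour examined here. Capitals mark the bases that differ inside the aligned stretch.
Spink1l: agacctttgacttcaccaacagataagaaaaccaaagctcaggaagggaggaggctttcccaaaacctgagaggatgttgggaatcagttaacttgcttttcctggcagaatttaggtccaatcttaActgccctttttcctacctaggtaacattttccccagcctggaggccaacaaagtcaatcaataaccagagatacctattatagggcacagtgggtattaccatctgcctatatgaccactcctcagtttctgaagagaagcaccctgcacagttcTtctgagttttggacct
Spink1: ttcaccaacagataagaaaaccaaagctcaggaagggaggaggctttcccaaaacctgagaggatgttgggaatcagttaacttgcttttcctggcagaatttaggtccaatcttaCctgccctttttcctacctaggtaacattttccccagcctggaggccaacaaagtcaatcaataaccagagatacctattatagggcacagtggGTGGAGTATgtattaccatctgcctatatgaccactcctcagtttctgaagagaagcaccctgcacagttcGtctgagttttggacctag
Over the aligned stretch, 287 of 289 paired bases were identical (99.3%), with 2 mismatches and a single gap of 9 bases, present in Spink1 and missing from Spink1l. Both windows hold a CCAAT box (the letters CCAAT, searched on both strands), as did 37.5% of the 33469 promoter windows in the RefSeq table.

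Spink1l gave the clearest separation by own diet. In the chow line its intensity ran from 27.3 to 144 (median 49.6) on chow and from 153 to 485 (median 255) on the HFD. In the HFD line, females on chow lay between 22.1 and 103 (median 63.8), and the 5 on the HFD gave 253, 609, 113, 203 and 239. Every HFD array was thus above every chow array within its line, although the gap was small: the highest chow array of the chow line was array 21, and the lowest HFD array of the HFD line was array 45. On the log2(intensity + 16) scale the own-diet difference was 1.97 ± 0.34 (SE) in the chow line, 3.93-fold, and 1.84 ± 0.37 in the HFD line, 3.57-fold. Without the 4 arrays that stood apart it was 2.42 and 1.83.

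Spink1 itself was dim and fell below the filter. Its intensity was 5.1 to 21.7 and 20.8 to 60.3 in chow-line females on chow and the HFD, and 9.86 to 20.6 in HFD-line females on chow. The 5 HFD-line females on the HFD gave 62, 110, 19, 37 and 62. Groups overlapped in both lines, by arrays at the edge of each range. Its own-diet differences were 1.03 ± 0.21 and 1.12 ± 0.22, and the average over lines was 1.07 ± 0.15. These are descriptions without a p-value, since Spink1 is a near-identical copy of Spink1l, which the same contrasts chose. Both chow groups of Spink1 also had mean log2 signals (4.82 and 4.96) under the filter limit of 5.72.

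Within groups, Spink1 and Spink1l moved together from female to female. After array medians and group means were removed, Pearson's r was 0.839 (100000 permutations of arrays within groups, two-sided p = 1e-05, the smallest they can give, adjusted p = 0.00022 over 22 gene-neighbour pairs) and Spearman's rho was 0.802 (permutation p = 4e-05). Without arrays 21 and 44, the farthest from the median, r was 0.753. The neighbour comparison was chosen after values had been seen. The genes are near-identical copies, and how far the probes of either read the other's transcript was not tested, so both values are uncertain as readings of a single gene. Jakmip2, the neighbour on the other side, stayed between 16.7 and 30.3 in every group.

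**Figure D1:**
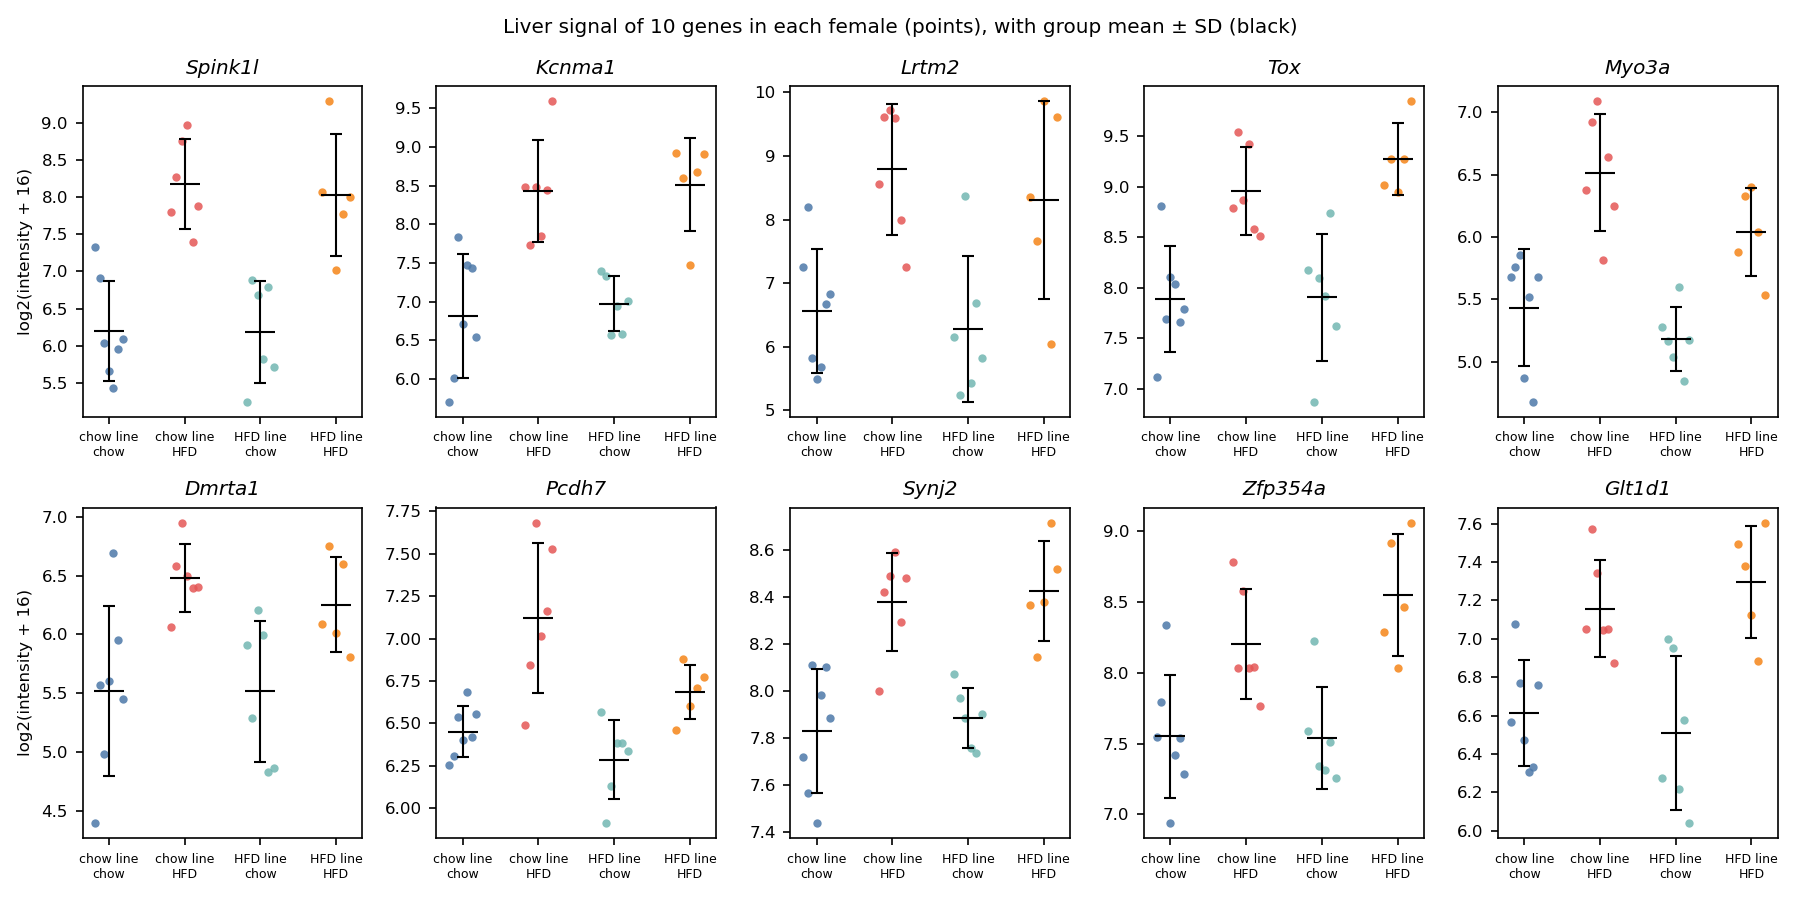
Liver signal of each gene, log2(intensity + 16), in every female (points) of the 4 groups, with the group mean and SD in black. Spink1l is the gene whose HFD points all lie above the chow points in both lines and Lrtm2 has the widest spread, with group SDs of 0.97 to 1.56.

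Kcnma1 was about 3-fold brighter on the HFD in each line. In the chow line it ran from 36.1 to 213 (median 88.6) on chow and from 196 to 758 (median 337) on the HFD. In the HFD line, females on chow gave 79 to 152 (median 110), and those on the HFD gave 470, 373, 161, 393 and 463. Groups touched in the chow line, where 5 of 6 HFD arrays exceeded the highest chow array, and did not overlap in the HFD line. The differences were 1.62 ± 0.31 and 1.54 ± 0.34 on the log2 scale, 3.07-fold and 2.92-fold. Without the 4 arrays that stood apart they were 1.22 and 1.44.

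Genes of the channel's auxiliary subunits gave no call. Of 11 listed auxiliary subunits and related channel genes, 10 were measured and 8 tested, and none passed in the own-diet contrast averaged over lines (limma, adjusted p), with 1 higher and 1 lower at an unadjusted p under 0.05. Over all tested features 2.74% were higher and 10.6% lower at that unadjusted threshold, the background for each such count of a list below. Kcnmb3, an auxiliary beta subunit, differed by 0.16 ± 0.07 (adjusted p = 0.328). The summed intensity of the list was 385 to 553 over all groups. Lrmda, the measured neighbour of Kcnma1, differed by 0.57 ± 0.24 and 0.37 ± 0.27 in the chow and HFD lines, with no co-variation past the threshold (r = -0.037, permutation p = 0.876; rho = -0.053, permutation p = 0.82).

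Lrtm2 had the largest own-diet difference and also the largest spread. In the chow line it ran from 29 to 276 (median 86.1) on chow and from 136 to 832 (median 558) on the HFD. In the HFD line, females on chow gave 21.9 to 316 (median 47.8), and those on the HFD gave 312, 186, 915, 50 and 767. Groups overlapped in both lines, with 4 of 6 HFD arrays above the highest chow array in the chow line and 2 of 5 in the HFD line. The differences were 2.23 ± 0.57 and 2.02 ± 0.62, 4.68-fold and 4.06-fold. Without the 4 arrays that stood apart they were 2.74 and 2.01. Its residual SD within groups, 1.17 on the log2 scale, lay at the 99.9th percentile of all tested features.

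Lrtm2 lies within Cacna2d4, the gene of an auxiliary calcium channel subunit, and both were brighter on the HFD. Cacna2d4 ran from 28.9 to 86.7 on chow and 77.5 to 133 on the HFD in the chow line, and from 41.1 to 129 on chow in the HFD line. The 5 HFD-line females on the HFD gave 99, 66, 132, 78 and 104, all inside or just above the chow range of their line. Averaged over lines, Cacna2d4 rose by 0.61 ± 0.14 (limma, adjusted p = 0.0238), and without array 45 the value was 0.56 (adjusted p = 0.0572). By line it differed by 0.85 ± 0.20 in the chow line (limma, adjusted p = 0.0602) and 0.37 ± 0.21 in the HFD line (adjusted p = 0.391), neither past the threshold. Its p-values are no separate evidence, since the same contrasts chose Lrtm2 and shared signal between the genes was not tested. Within groups it followed Lrtm2, with r = 0.618 (permutation p = 0.00405, adjusted p = 0.0297 over the 22 pairs) and rho = 0.537 (permutation p = 0.0152), and r = 0.497 without arrays 39 and 46 (adjusted p = 0.243). That call was lost without that pair, after quantile normalization (adjusted p = 0.059), with an offset of 1, without the 4 arrays that stood apart and without each of arrays 25, 35, 39 and 45. Of all pairs of tested features, 4.72% had a correlation of at least 0.57 in size.

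The other genes around Lrtm2 gave smaller differences, below 0 in both lines. Dcp1b and Adipor2, the neighbours outside Cacna2d4, differed by -0.16 ± 0.11 and -0.07 ± 0.09 in the chow line, and by -0.06 ± 0.12 and -0.23 ± 0.10 in the HFD line. Of 9 listed relatives of Lrtm2 and calcium channel subunits, 7 were tested and Cacna2d4 alone rose. Lrtm1, the closest relative by name, differed by 0.22 ± 0.09 (adjusted p = 0.255). Whether probes for Lrtm2 and Cacna2d4 read each other's transcripts was not tested.

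Tox, the HMG-box protein of T cells, was brighter on the HFD in both lines. In the chow line it ran from 122 to 434 (median 206) on chow and from 350 to 731 (median 440) on the HFD. In the HFD line, females on chow gave 101 to 412 (median 242), and those on the HFD gave 501, 602, 476, 602 and 905. The highest chow array of the chow line was array 25, and only 3 of 6 HFD arrays there exceeded it, while the HFD-line groups did not overlap. The differences were 1.07 ± 0.25 and 1.37 ± 0.27, 2.1-fold and 2.58-fold.

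Lymphocyte markers, read beside Tox because it is known from T cells, did not rise with it. Of 16 listed markers 14 were measured and 10 tested, and none passed for own diet averaged over lines (limma), with 0 higher and 3 lower at an unadjusted p under 0.05 and a median of -0.13. Their summed intensity was 1405 to 2272, 1182 to 1749, 1326 to 1914 and 1405 to 1821 in the 4 groups in the order above. Cd4 was the brightest, at mean log2 signals of 9.79, 9.4, 9.41 and 9.28, so the sums weigh Cd4 most. Cd3e was dim, at 6.19, 6.22, 6.16 and 6.15, and Cd3d, Cd3g, Cd2 and Ms4a1 fell below the filter. Whether the number of T cells changed was not tested. The 3 lower ones were Cd4 (-0.262 ± 0.120), Prf1 (-0.242 ± 0.105) and Cd8a (-0.210 ± 0.084), with limma adjusted p of 0.338, 0.301 and 0.248. Cd3e, part of the T cell receptor complex, lay nearest 0 and differed by 0.02 ± 0.09 in the chow line and -0.02 ± 0.09 in the HFD line. Of the TOX family, 3 of 3 were tested and none passed, and Tox3 differed by 0.45 ± 0.16 (adjusted p = 0.18).

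Zfp354a, a KRAB zinc finger gene, had a larger difference in the HFD line than in the chow line. It ran from 107 to 308 (median 170) on chow and 201 to 425 (median 247) on the HFD in the chow line. HFD-line females gave 137 to 283 (median 156) on chow, and 296, 467, 246, 337 and 518 on the HFD. Groups overlapped in both lines, with 2 of 6 and 4 of 5 HFD arrays above the highest chow array. The differences were 0.66 ± 0.21 and 1.01 ± 0.22, 1.58-fold and 2.02-fold.

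Msantd5, a neighbour of Zfp354a, followed it from female to female within groups. Msantd5 differed by -0.01 ± 0.11 and -0.02 ± 0.12 in the chow and HFD lines. Its within-group correlation with Zfp354a was r = 0.691 (permutation p = 0.00052, adjusted p = 0.00572) and rho = 0.69 (permutation p = 0.00067). Without arrays 26 and 38 r was 0.59, which no longer passed. Zfp354c and Trim28, a zinc finger relative and the corepressor of KRAB proteins, were the tested members of its list, and neither passed (Trim28 -0.10 ± 0.09, adjusted p = 0.682).

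Dmrta1, the DM-domain factor, had the fewest HFD arrays clear of the chow range. In the chow line it ran from 5.07 to 87.1 (median 31.5) on chow and 50.9 to 108 (median 71.5) on the HFD. Those of the HFD line gave 12.4 to 57.9 (median 33.6) on chow, and 52, 92, 49, 81 and 40 on the HFD. A single HFD array of 6 in the chow line, and 2 of 5 in the HFD line, exceeded the highest chow array, and the chow arrays alone spanned most of the range. The differences were 0.96 ± 0.27 and 0.74 ± 0.29, 1.95-fold and 1.67-fold. Dmrta1 also passed the filter only through the HFD groups, since both chow groups had mean log2 signals of 5.52, under the limit of 5.72. Its folds and its other values carry that limit. With an offset of 1 in place of 16 the differences were 1.41 and 1.06. None of the 7 other DMRT factors passed (limma, own diet averaged over lines), with 0 higher and 1 lower at an unadjusted p under 0.05.

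Myo3a, the class III myosin, passed the filter narrowly, with a mean log2 signal of 5.77 against 5.72, and only through the HFD groups: both chow groups had means under that limit (5.44 and 5.18). Its folds over this dim baseline depend on the offset, and its other values carry the same limit. It ran from 9.63 to 41.9 (median 35.3) on chow and 40.3 to 120 (median 75.6) on the HFD in the chow line. HFD-line females gave 12.8 to 32.6 (median 20) on chow, and 43, 64, 69, 50 and 30 on the HFD. In the chow line 5 of 6 HFD arrays exceeded every chow array, and in the HFD line 4 of 5 did. The differences were 1.08 ± 0.20 and 0.85 ± 0.22, 2.12-fold and 1.81-fold, and with an offset of 1 in place of 16 they were 1.49 and 1.26. Its neighbour Gpr158 co-varied with it at r = 0.564 (permutation p = 0.00885, adjusted p = 0.0487) and rho = 0.525 (permutation p = 0.0177). Without arrays 29 and 33 r was 0.461, and 18 of 24 fits that left out 1 array lost the call. Of all pairs of tested features, 4.72% had a correlation of at least 0.57 in size, so nothing is read from this pair.

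Pcdh7, the protocadherin, and Synj2, the inositol phosphatase, had smaller differences, averaged over lines, and less spread within groups than the other 8 genes, although their residual SDs, 0.27 and 0.21, lay at the 84.1th and 61.9th percentile of all tested features. Pcdh7 ran from 60.2 to 87 (median 69.5) on chow and 74 to 190 (median 120) on the HFD in the chow line. HFD-line females gave 44.2 to 78.9 (median 66.1) on chow, and 72, 102, 81, 89 and 93 on the HFD. All but a single HFD array in each line exceeded the highest chow array, at differences of 0.67 ± 0.14 and 0.40 ± 0.15, 1.59-fold and 1.32-fold. None of the 8 other tested non-clustered protocadherins passed (limma), and none did at an unadjusted p under 0.05.

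Synj2 ran from 157 to 261 (median 221) on chow and 240 to 369 (median 334) on the HFD in the chow line. HFD-line females gave 197 to 253 (median 222) on chow, and 314, 267, 317, 404 and 351 on the HFD. Groups did not overlap in the HFD line, and array 22 alone of the 6 chow-line HFD arrays reached into the chow range. Differences were 0.55 ± 0.12 and 0.54 ± 0.13, 1.46-fold and 1.45-fold, nearly the same in both lines. Of 11 tested phosphatases and partners none passed (limma), with 3 lower at an unadjusted p under 0.05, and Inppl1, which encodes a lipid phosphatase of insulin signalling, differed by -0.22 ± 0.07 (adjusted p = 0.0966).

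Glt1d1, with its glycosyltransferase domain, was 1.46-fold and 1.73-fold brighter on the HFD. It ran from 63.1 to 119 (median 78.9) on chow and 101 to 174 (median 117) on the HFD in the chow line. HFD-line females gave 49.8 to 112 (median 70.4) on chow, and 164, 150, 124, 102 and 179 on the HFD. Groups overlapped in both lines, with 2 of 6 and 4 of 5 HFD arrays above the highest chow array. The differences were 0.55 ± 0.16 and 0.79 ± 0.17. Its overlapping gene Slc15a4 differed by 0.06 ± 0.12 and -0.12 ± 0.13.

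All 10 genes were higher on the HFD in both lines, which their choice fixed. The median own-diet difference over the 10 was 1.01 in the chow line and 0.93 in the HFD line, beside 0.01 and -0.09 over all 15687 tested features. Groups did not overlap for 1 of the 10 in the chow line, where 0.140% of all tested features had every HFD array above every chow array. That count was 3 without array 22, 25 or 26, 2 without array 28, 31 or 33, and 6 without the 4 arrays that stood apart. In the HFD line this held for 4 of the 10, Spink1l, Kcnma1, Tox and Synj2, beside 0.331% of all features. Over both lines 3 of the 15687 tested features (0.0191%) did so, and these were Spink1l, Setbp1 and Tsc22d1; the last pair was named after its values were seen. Nothing is read from these counts, since the same contrasts chose the genes. In the own-diet contrast averaged over lines 57 features rose (0.363%) and 255 fell (1.63%) at an adjusted p under 0.05.

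The own-diet difference was larger in the chow line for 7 genes and in the HFD line for Tox, Zfp354a and Glt1d1. The difference between lines (HFD line minus chow line) was 1.3 times its standard error at most, for Pcdh7 at -0.27 ± 0.21. The widest in log2 units were 0.36 ± 0.30 for Zfp354a and 0.30 ± 0.37 for Tox. These values are a description, since the same contrasts chose the genes, and the standard errors, up to 0.84 for Lrtm2, leave room for unequal differences. Other genes of the same arrays lay near equality as well or far from it. In the chow and HFD lines, Sqle and Dhcr7 of cholesterol synthesis gave -1.97 and -2.43, and -1.28 and -1.35, and the clock gene Per2 gave 0.84 and 1.13. The acinar protease gene Cpa1 gave -0.90 and -1.97, Vnn1, a pantetheinase, gave 1.63 and 0.08, and Fabp2, a fatty acid binding protein, gave 1.35 and 0.60.

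**Figure D2:**
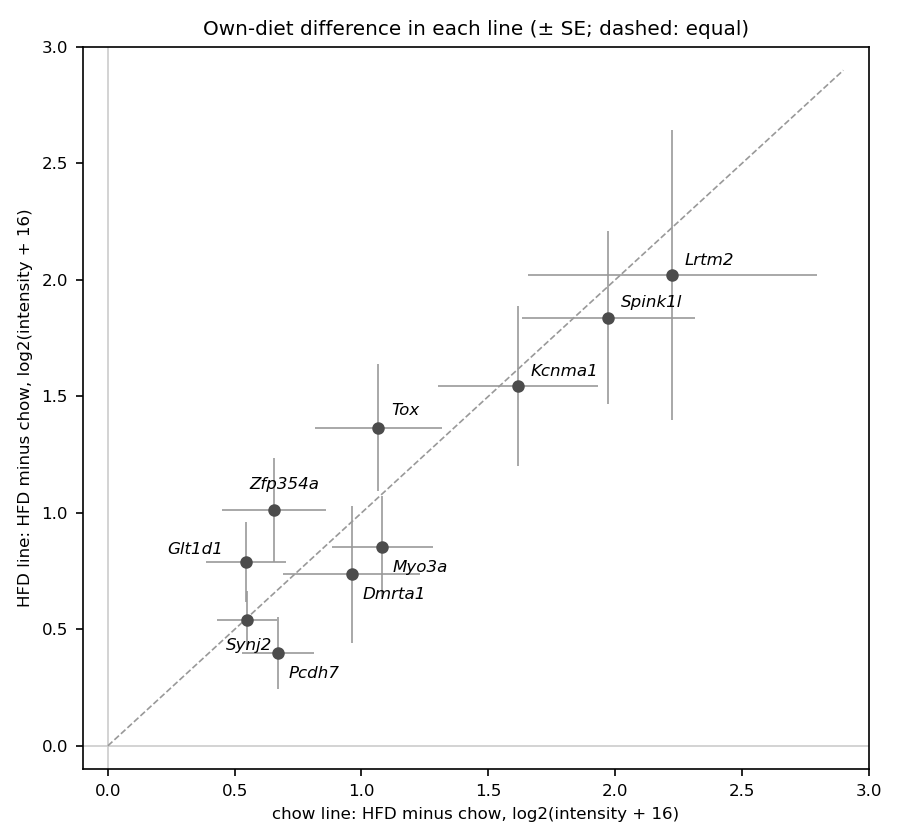
Own-diet difference of each gene, HFD minus chow in log2(intensity + 16), in the chow line (horizontal axis) and the HFD line (vertical axis), with bars of 1 SE and a dashed line of equality. The genes lie along the dashed line from Synj2 at 0.55 and 0.54 to Lrtm2 at 2.23 and 2.02, and Pcdh7 lies below it and Zfp354a above it by about their errors.

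The grandfather's diet was a contrast that did not choose the genes, so it was tested. It asks whether the HFD line differed from the chow line once averaged over own diets. None of the 10 genes passed (limma, adjusted p under 0.05), and neither did any of the 15687 features (0%), the smallest adjusted p on the array being 0.061. At an unadjusted p under 0.05, 2 of the 10 passed beside 11.0% of all features. The median over the 10 genes was -0.03 and over all features -0.05, with 5 genes above 0 and 5 below.

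Pcdh7 and Myo3a were the pair with an unadjusted p under 0.05, and both were lower in the HFD line. Pcdh7 differed by -0.30 ± 0.10 (95% interval -0.52 to -0.09, limma, adjusted p = 0.334). The difference was -0.17 ± 0.14 on chow and -0.44 ± 0.15 on the HFD. Myo3a differed by -0.36 ± 0.15 (limma, -0.67 to -0.06, adjusted p = 0.378), at -0.25 ± 0.20 on chow and -0.48 ± 0.22 on the HFD. Both chow groups of Myo3a lay under the filter limit, so its value on chow, and with it the average, compares dim signals. Neither passed the correction, and the group ranges of both genes overlapped between lines on either diet.

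For the other genes the intervals show what could not be told apart from no difference. Synj2 had the narrowest, from -0.13 to 0.23 around 0.05 (adjusted p = 0.866). Lrtm2 had the widest, from -1.25 to 0.49 around -0.38 (adjusted p = 0.775). Spink1l lay at -0.08 (-0.60 to 0.44), Kcnma1 at 0.12 (-0.36 to 0.60), Tox at 0.17 (-0.21 to 0.55), Dmrta1 at -0.12 (-0.53 to 0.29), Zfp354a at 0.17 (-0.14 to 0.48) and Glt1d1 at 0.02 (-0.22 to 0.26). The signs of Spink1l, Kcnma1, Synj2 and Glt1d1 turned under some settings and carry no direction.

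**Figure D3:**
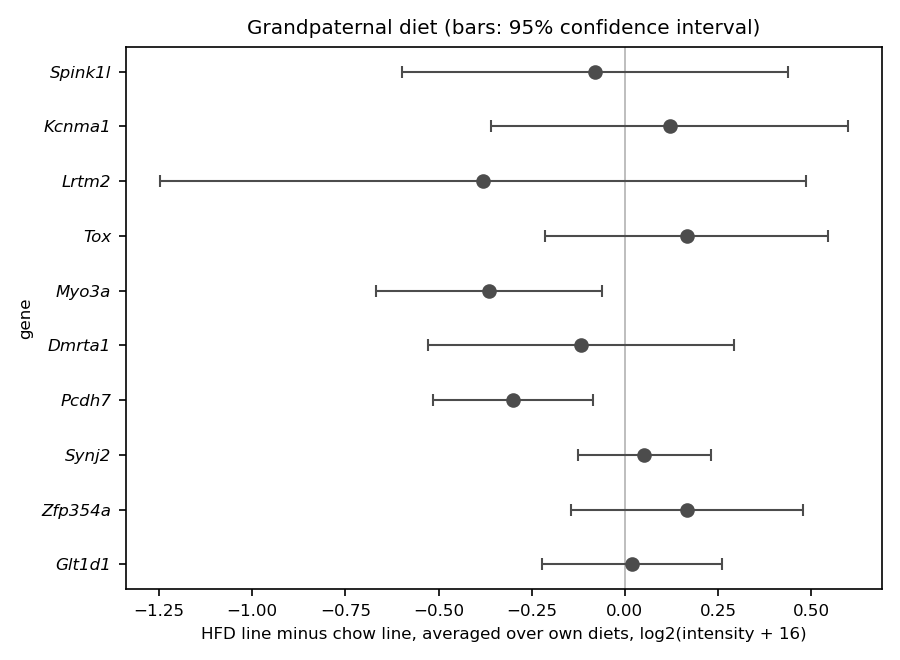
Difference between lines, HFD line minus chow line, averaged over own diets in log2(intensity + 16), for each gene with its 95% confidence interval. The intervals of Pcdh7 (-0.52 to -0.09) and Myo3a (-0.67 to -0.06) leave out 0, before any correction for the number of features tested, and the other 8 include it. Myo3a and Dmrta1 lay under the filter limit in both chow groups.

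Whether the 10 genes varied together from female to female within groups was tested next, since the choice of genes did not use it. Of 45 pairs, 1 passed after adjustment over the pairs, and 5 had an unadjusted permutation p under 0.05. The correlations ranged from -0.666 to 0.602, with 22 above 0, 23 below 0 and a median of -0.01. Over all pairs of tested features the median was 0.022, the middle of the distribution lay between -0.184 and 0.23, and 52.8% were above 0. Of those pairs 4.72% reached at least 0.57 in size. Their share under the permutation thresholds was not computed, so the counts of 1 and 5 have no such background. Among females of the same group, the 10 genes thus gave correlations of either sign about equally often.

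The pair that passed moved in opposite directions. Kcnma1 and Lrtm2 gave r = -0.666 over 24 arrays (permutation p = 0.00049, adjusted p = 0.022) and rho = -0.656 (permutation p = 0.00166, adjusted p = 0.0373). Inside the groups r was -0.716, -0.924, -0.844 and -0.439 in the order above. Array 35, a chow-line female on the HFD, had the highest Kcnma1 of all at 758 and the lowest Lrtm2 of its group at 136. Array 45, an HFD-line female on the HFD, had the lowest Kcnma1 of its group at 161 and the highest Lrtm2 of all at 915. Without both arrays r was -0.542 (adjusted p = 0.179), so the call rests on them. It was also lost on the values as deposited (-0.611, adjusted p = 0.0936) and without the 4 arrays that stood apart (-0.61, adjusted p = 0.304). Leaving out any of arrays 25, 31, 33, 35, 39, 44 and 45 alone also lost the call.

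Spink1l, Lrtm2 and Glt1d1 gave the strongest positive pairs. Spink1l and Glt1d1 gave r = 0.602 (permutation p = 0.00586, adjusted p = 0.0879) and rho = 0.675 (permutation p = 0.00137, adjusted p = 0.0373), with r = 0.678 without arrays 21 and 44. This pair passed by rank and missed by Pearson's r. Lrtm2 and Glt1d1 gave r = 0.575 (permutation p = 0.0058, adjusted p = 0.0879) and rho = 0.528 (permutation p = 0.0126, adjusted p = 0.189), falling to r = 0.396 without arrays 39 and 46. Correlations of at least 0.57 in size made up 4.72% of all pairs of tested features.

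**Figure D4:**
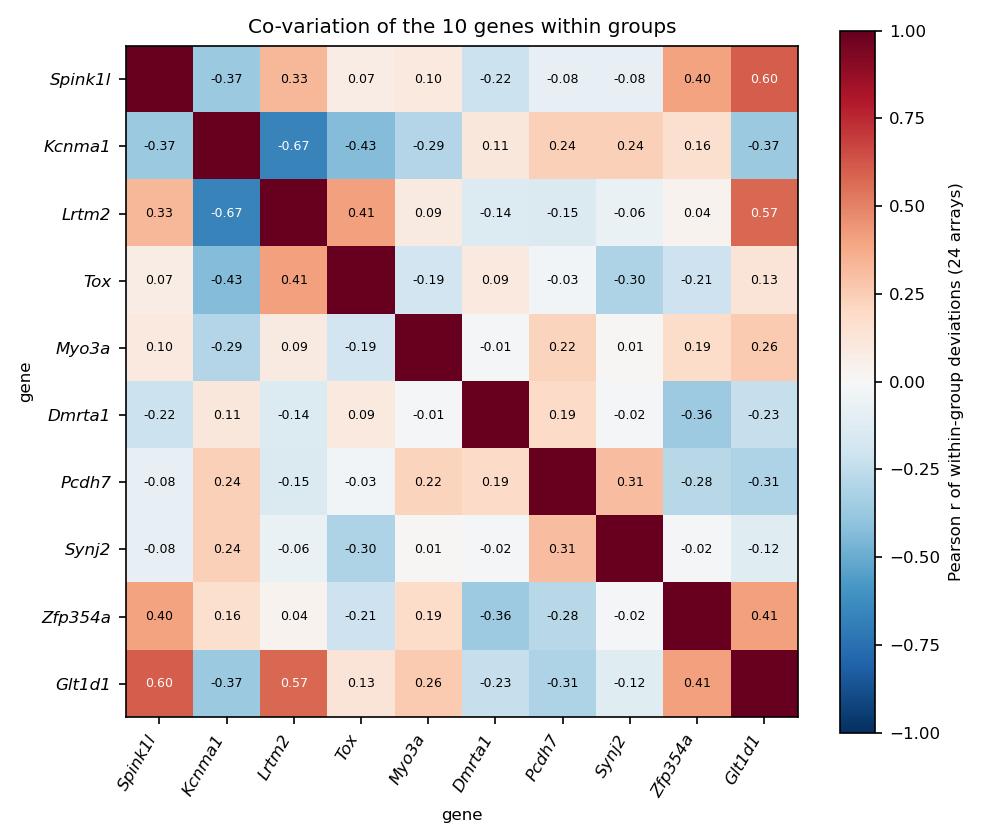
Pearson correlation of within-group deviations for each pair of the 10 genes over 24 arrays, with blue below 0 and red above. Kcnma1 with Lrtm2 at -0.67 is the darkest blue cell, and Spink1l with Glt1d1 at 0.60 and Lrtm2 with Glt1d1 at 0.57 are the darkest red cells off the diagonal.

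**Figure D5:**
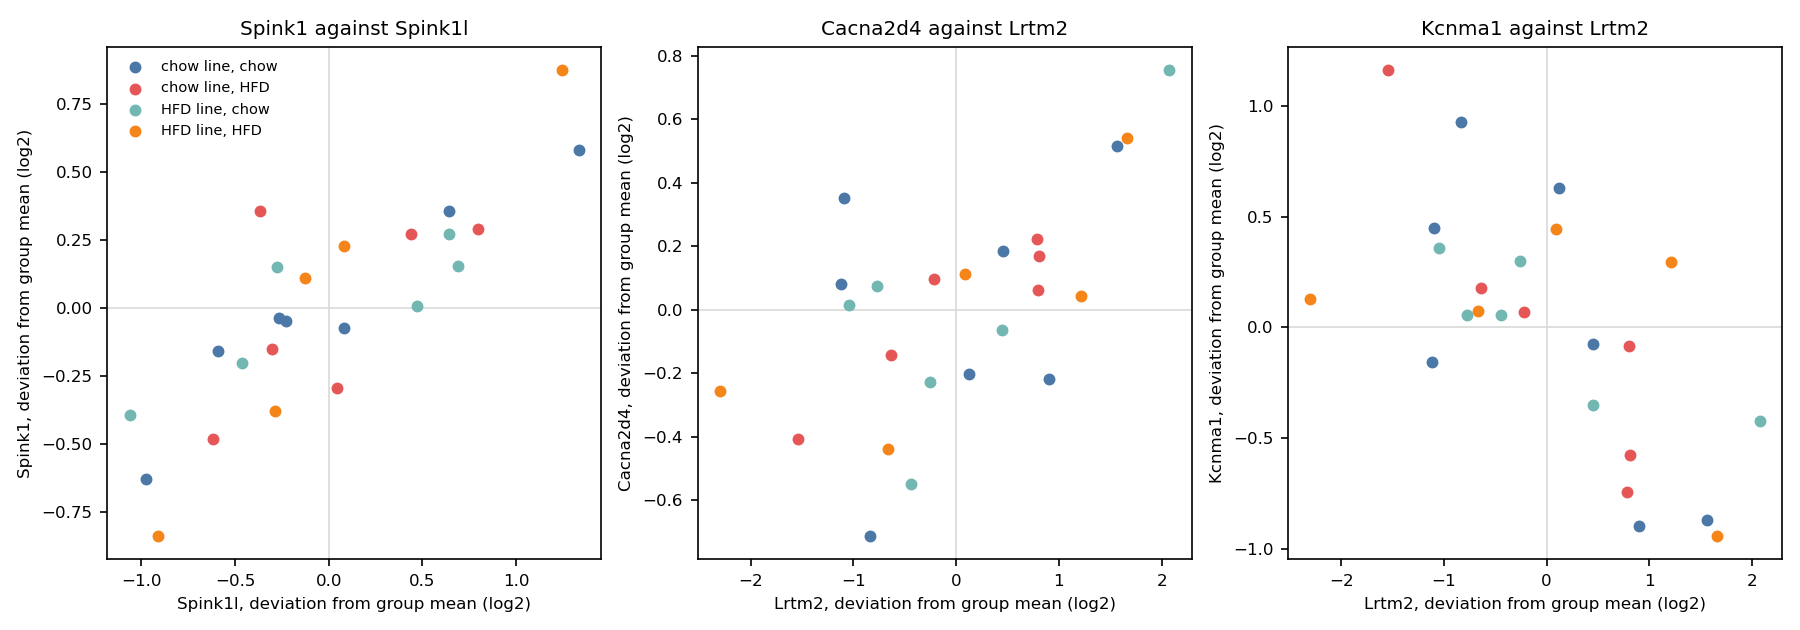
Deviations from the group mean in log2 units, 1 point per female coloured by group, for Spink1 against Spink1l, Cacna2d4 against Lrtm2 and Kcnma1 against Lrtm2. The first panel rises along its diagonal in all 4 groups (r = 0.839), the second rises with more scatter (r = 0.618), and the third falls (r = -0.666).

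Among the other named features that passed the filter, the closest in within-group variation to each gene were the following, chosen as the highest and given without a test, over 24 arrays. Spink1, which did not pass the filter, was closer to Spink1l at 0.839. Myo3a was matched by Lrtm1 (r = 0.836) and Ccn3 (0.798), Zfp354a by Dclre1a (0.829) and Per1 (0.821), and Glt1d1 by Zfpm2 (0.795) and Slc25a48 (0.771). Lrtm2 was matched by Pdgfa (0.773) and Sft2d1 (0.746), Dmrta1 by Pnpla5 (0.759) and Safb (0.705), and Spink1l by Myo19 (0.752) and Ptcd1 (0.751). Pcdh7 was matched by Rpl30l1 (0.741) and Trim27 (0.722), Kcnma1 by Mfsd11 (0.712) and Tpbg (0.695), Synj2 by Ykt6 (0.695) and Mecom (0.686), and Tox by Wwtr1 (0.694) and Tmod1 (0.650). None of these features was named for more than a single gene of the 10. With the 4 arrays that stood apart left out, these values lay between 0.626 and 0.841.

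Few relatives of the genes, taken over 9 family lists, passed the test. Of 73 listed genes 64 were measured and 49 tested, and in the own-diet contrast averaged over lines 1 rose, Cacna2d4, and 0 fell (limma), beside 0.363% rises and 1.63% falls over all features. At an unadjusted p under 0.05, 4 were higher and 5 lower, beside 2.74% and 10.6% over all features. With no filter 2 rose, Spink1 joining Cacna2d4, but Spink1 is a near-identical copy of a chosen gene and nothing is read from its rise. Cacna2d4 holds the chosen gene Lrtm2 and passed in neither line alone, so nothing is read from its rise either. For the grandfather's diet 0 of the 49 passed and 3 had an unadjusted p under 0.05, beside 11.0% of all features.

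Markers of other liver cell types and clock genes are given beside the 10 genes because some moved with own diet. Of 12 tested Kupffer cell and macrophage markers 3 fell, namely Marco (-1.16 ± 0.16, adjusted p = 6.93e-05), Cd5l (-0.70 ± 0.14, adjusted p = 0.00731) and Vsig4 (-0.55 ± 0.14, adjusted p = 0.0393), and the list's summed intensity was 6437 to 10597 and 3832 to 6833 in chow-line females on chow and the HFD, and 5250 to 9276 and 4743 to 7812 in HFD-line females. Cpa1, an acinar cell protease gene, fell by 1.44 on the log2 scale (adjusted p = 0.0263), as 1 of 8 tested acinar markers. That list's summed intensity was 2511 to 8514, 1825 to 4404, 2908 to 5580 and 618 to 4009 in the 4 groups. Cpa1 was its only bright gene, at mean log2 signals of 12.26, 11.36, 11.7 and 9.73, and no other marker had a group mean above 6.4. The median own-diet difference of the tested acinar markers was 0.02, so the sums describe Cpa1 more than the list. Among the other lists, 1 of 6 tested bile duct markers fell, Epcam (-0.55 ± 0.10, limma, adjusted p = 0.0033), at a list median of -0.02. Fabp4 rose (0.62 ± 0.16, limma, adjusted p = 0.0412) as 1 of 8 tested adipocyte markers, whose median was 0.05. Rgs5 rose (0.57 ± 0.15, limma, adjusted p = 0.039) as 1 of 9 tested stellate cell and fibroblast markers, whose median was -0.05. Over all tested features 0.363% rose and 1.63% fell. The part of these changes in the values of the 10 genes was not tested.

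Of 14 tested clock genes, Per2 (0.99 ± 0.20, adjusted p = 0.00734) and Hlf (0.66 ± 0.16, adjusted p = 0.0292) rose and Nfil3 (-0.42 ± 0.11, adjusted p = 0.0403) fell. Per2 gave r = 0.483 with Glt1d1 (permutation p = 0.0232, adjusted p = 0.433; rho = 0.45, permutation p = 0.043) and r = 0.449 with Zfp354a (permutation p = 0.035, adjusted p = 0.433; rho = 0.529, permutation p = 0.0147), neither past the threshold. Over 280 relations of the 10 genes with list scores and comparison genes, 0 passed after adjustment, and 26 had an unadjusted permutation p under 0.05. The share for other features was not computed, so nothing is read from the 26 or from any single relation among them. The smallest p was that of Pcdh7 with Dhcr7, an enzyme of cholesterol synthesis (r = 0.554, permutation p = 0.00066, adjusted p = 0.185; rho = 0.558, permutation p = 0.00274). Tox gave no relation under 0.05 with lymphocyte markers. Dmrta1 gave r = -0.587 with them (permutation p = 0.0127, adjusted p = 0.433) and rho = -0.637 (permutation p = 0.00593), which did not pass. Both chow groups of Dmrta1 lay under the filter limit, so nothing is read from that relation.

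Promoter windows of the same length were at hand for 8 of the 10 genes, all but Tox and Myo3a. They were searched on both strands for a few motif spellings. CACGTG, the E-box bound by clock and sterol regulators, stood in 6.42% of all windows and in that of Glt1d1. TTCNNNGAA, the STAT site, stood in 8.87% of windows and in that of Zfp354a, and CCAAT stood in Pcdh7 and Spink1l. TATAAA (14.2% of windows), the sterol response element TCACNCCAC (1.12%) and the nuclear receptor repeat AGGTCANAGGTCA (0.0538%) stood in none of the 8. A match is a description of letters in the window only.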

How the data were processed

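Liver RNA of 24 female rats was measured on 1 Affymetrix whole-transcript array each, from 200 ng of RNA per the labels' protocols. The values deposited by the authors are a linear intensity for each probe set on each array. The submitters' processing notes name PLIER and Affymetrix Expression Console; their versions and options are not stated there. From these, log2(intensity + 16) was computed with no further normalization, and the lower 25% of the 20917 probe sets by mean (mean log2 under 5.72, 5230 probe sets) were left out. The offset understates differences of dim genes.

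The remaining 15687 were fitted in limma 3.58.1 (R 4.3.3) by lmFit and contrasts.fit, using the 4 group means of the 24 arrays and eBayes with its trend option, and p-values are two-sided with Benjamini-Hochberg adjustment over all 15687 at a threshold of 0.05. The ± after a difference is its standard error. Co-variation used values centred on each array's median with group means removed, and 100000 permutations of arrays within groups (Python 3.11.15, numpy 2.4.6, scipy 1.17.1). Names came from the platform annotation: 18197 probe sets had 1 gene, 960 several and 1760 none. Promoter windows are RefSeq's on GRCr8, and neighbours follow its gene order. The fit was tested on simulated data.

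The 10 genes and the gene lists were chosen with earlier results of these data known. All 10 genes are named. Of the lists, genes that passed and up to 3 others by size or p are named, with Cd3e added as a T cell marker, and for likeness up to 2 genes a member. The alternatives were quantile normalization, median centring, other filters and offsets, the 4 arrays that stood apart left out or as a block, other eBayes options, array weights, and each array left out. The number of arrays limits the precision.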

Additional observations from a re-analysis of the deposited data

Results flagged for a closer look

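In each of the 40 combinations of a gene and a group, the gap from the most extreme female to her nearest neighbour was compared with the group's range, and 2 combinations stood out. Chance flags about 1 in 20 such groups. Kcnma1 in HFD-line females on the HFD had array 45 at a log2 signal of 7.47, with the nearest of the other 4 at 8.60, a gap of 0.781 of the range (critical value 0.71 for 5 samples). The same array had the highest Lrtm2 and the lowest Spink1l of that group. Zfp354a in HFD-line females on chow had array 38 at 8.23, with the nearest of the other 5 at 7.59, a gap of 0.658 of the range (critical value 0.625 for 6 samples).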

How the results depend on the processing

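No paired analysis was possible because no replicate number occurs in more than 1 group. All 10 genes stayed higher on the HFD in both lines under each setting, except that the stricter filter, at the median of the probe set means, kept only 6 of them, which moved the HFD-line median to 1.454. The count of genes whose groups did not overlap in the chow line, 1 at first, was 2 after quantile normalization, 6 without arrays 21, 22, 24 and 25, and 1 to 3 with each array left out. For the grandfather's diet none of the 10 genes passed under any of the 11 settings or the 24 fits without 1 array. Its sign turned without the 4 arrays for Spink1l (0.06), Kcnma1 (-0.117) and Synj2 (-0.016), and with array weights for Spink1l (0.066). With each array left out Spink1l ranged from -0.236 to 0.048 and Glt1d1 from -0.03 to 0.07. The count of co-varying pairs past the threshold was 0 on the values as deposited, without the 4 arrays and without the 2 farthest arrays, and 0 to 2 with each array left out. It was 0 without each of arrays 25, 31, 33, 35, 39, 44 and 45, and 2 without 21 or 38. The correlation of Spink1l with Spink1 kept its call under all 6 settings and all 24 fits without 1 array (0.753 to 0.893). Rises among the related genes were 2 with no filter and 0 with the stricter filter, where Cacna2d4 itself was left out. The causes of these changes were not tested, beyond the genes or arrays each setting removes.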
